A study of Mus musculus with 54 samples.

Results

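Akita diabetes was compared with no diabetes in early proximal tubules of mice that lacked the glucose transporter SGLT1. The comparison took the vehicle-treated Sglt1 knockout samples of a deposited table of TPM values (transcript abundance corrected for gene length and scaled to one sum in every sample), 6 from Akita mice and 5 from non-diabetic mice, which is 11 of the 48 samples in the table. Genes were tested where TPM was 1 or more in at least 5 samples, which kept 12742 of 55487 rows.

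The study captured SGLT2-positive tubules from kidney sections of male DBA mice aged 14 weeks by laser, 70 to 80 tubules per sample, and sequenced their total RNA. Akita mice carried 1 mutant copy of Ins2 (Ins2 Akita/+), and non-diabetic mice were Ins2+/+. All 11 samples shared the knockout of Sglt1 (Slc5a1) and 2 weeks of vehicle. For non-diabetic knockouts 6 samples were labelled, and sample 4 of them had no column in the deposited table, so it was not analysed here. The mutant Ins2 is carried throughout life and lowers insulin in the whole animal, so the tubule was exposed to every systemic consequence of it. No label says which animal a sample came from, so the p-values reflect the spread among these 11 and the other samples alone, part of which may be technical.

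The Akita mutation makes proinsulin misfold in pancreatic beta cells, and the mice become insulin-deficient with high blood glucose. In the early proximal tubule SGLT2, encoded by Slc5a2, takes up most of the filtered glucose, and SGLT1, encoded by Slc5a1, takes up what is left further along. Glucose leaves these cells through GLUT2, encoded by Slc2a2. Proximal tubule cells burn fatty acids, make glucose, and carry high loads of transporters, peroxisomes and folding proteins.

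The targeted gene was read first. Slc5a1 was listed at 0, 0.054, 0.0399, 0.0767 and 0.0354 TPM in non-diabetic samples 1, 2, 3, 5 and 6, and lay from 0 to 0.0886 TPM (median 0) in the Akita samples, so no sample went against its knockout label. The 13 markers of the early proximal tubule were all tested and summed to 1267 to 2123 TPM in non-diabetic and 950.5 to 2022 TPM in Akita samples. Their median log2 fold change was −0.19 in TPM, against −0.24 for all genes tested. After median-of-ratios scaling, explained below, it was 0.15, and 11 of the 13 were higher, where 49.6% of all genes were.

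The ranges of the groups overlapped in each measure of sample makeup, and no difference passed the test. With so few samples this does not show that the groups were alike. Genes at 1 TPM or more numbered 10487 ± 746 (SD, n = 5) without diabetes and 9686 ± 1062 (n = 6) in Akita (2-sided exact permutation p = 0.195; the smallest possible with 5 against 6 samples is 0.00433). Akita samples 5 and 6 had fewer than 9000, at 8529 and 8465. Nuclear protein-coding genes took 11.1% ± 2.22 of TPM without diabetes and 8.98% ± 2.71 in Akita (exact permutation p = 0.208), and the leading ribosomal RNA took 45.3% ± 5.82 and 52.2% ± 8.10 (exact permutation p = 0.152). Adjusted over the 6 measures examined, the values lay between 0.312 and 0.403. TPM has the same sum in each sample, so a gene's TPM depends on the share that ribosomal RNA takes. For that reason many changes below are given in TPM and again after median-of-ratios scaling, which centres each sample on its typical gene. A single value given without a scale is from TPM, and its size can depend on the scale. TPM keeps no sequencing depth, so no counting error is given.

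**Figure D1:**
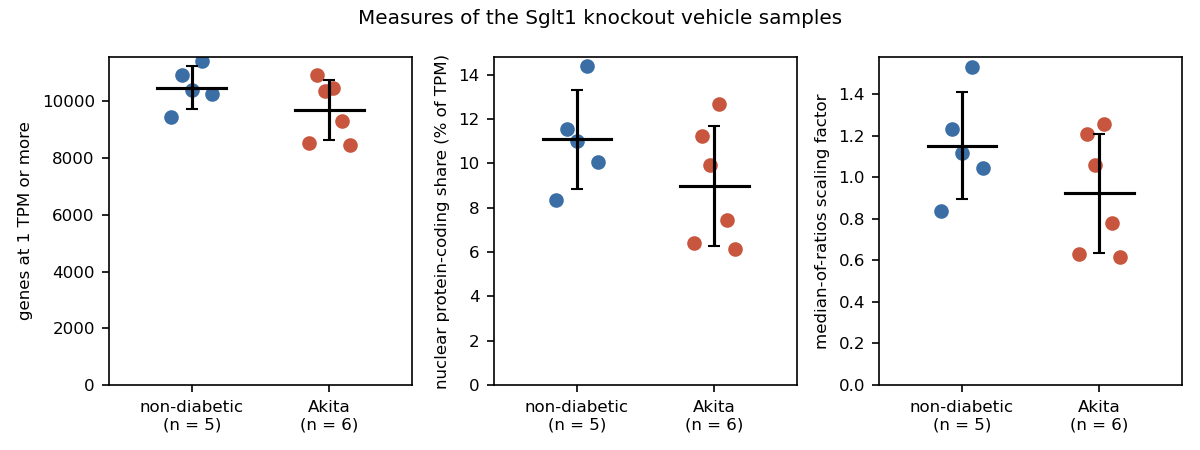
Genes at 1 TPM or more, the percent of TPM in nuclear protein-coding genes and the median-of-ratios scaling factor (no unit) for each of the 5 non-diabetic and 6 Akita Sglt1 knockout vehicle samples; lines are means and bars SD. Akita means are lower in all 3 panels, the ranges overlap, and the lowest 2 gene counts are Akita samples 5 and 6, at 8529 and 8465.

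No gene of 12742 passed the test (limma, Benjamini-Hochberg adjusted p under 0.05, 0% called; the smallest adjusted p was 0.14). At an unadjusted p under 0.05, 52 genes were higher in Akita tubules (0.408% of genes tested) and 1784 were lower (14%). The deposited TPM ranges of the groups did not overlap for 89 genes that were lower in Akita (0.698%) and for 0 that were higher (0%). This lean to lower values went with the scale. With median-of-ratios scaling 0 genes passed the test by limma, with a smallest adjusted p of 0.219, while 513 were higher (4.03%) and 492 lower (3.86%) at an unadjusted p under 0.05. The groups then did not overlap for 53 genes that were higher (0.416%) and 41 that were lower (0.322%). The median log2 fold change of all genes was −0.24 in TPM and 0.00 after scaling, and 81.4% of all genes tested were lower in Akita by sign in TPM and 50.1% scaled. Counts of list members by sign are read against these shares. All 492 genes that were lower on the second scale were also among the 1784 on the first, and 51 of the 52 higher genes were higher on both. In 13 genes the Akita samples were below every non-diabetic sample on both scales.

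**Figure D2:**
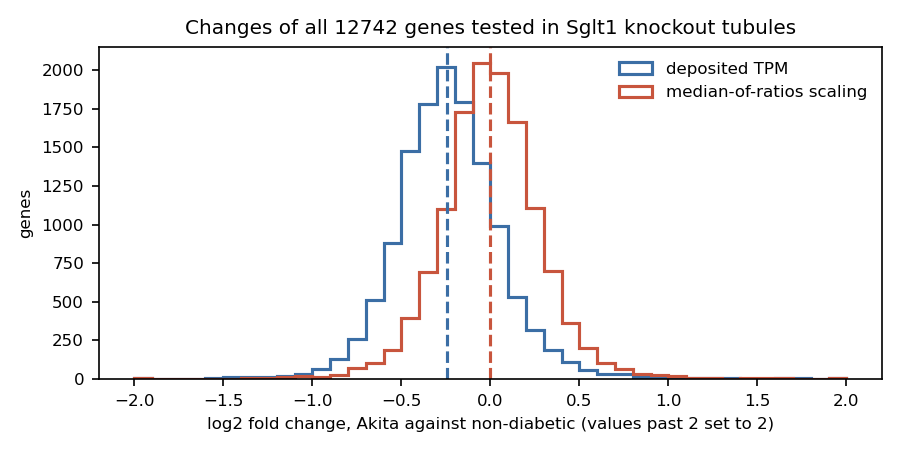
Histogram of log2 fold changes (Akita against non-diabetic, Sglt1 knockout, vehicle) over the 12742 genes tested, from deposited TPM and after median-of-ratios scaling; dashed lines mark the medians. The TPM curve is centred at −0.24 and the scaled curve at 0.00.

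Among the genes with the smallest p, Apob and Adam11 had the largest values on the side higher in Akita. Apob (chromosome 12, 7977648 to 8016835, GRCm38) encodes the structural protein of low-density lipoprotein and chylomicrons. Its level in non-diabetic samples 1, 2, 3, 5 and 6 was 0.713, 2.48, 1.05, 2.25 and 1.06 TPM, and in Akita samples it ran from 1.45 to 11.3 TPM (median 6.2). Of the Akita samples, 4 lay above every non-diabetic sample and 2 within their range. The log2 fold change, on the log2(TPM + 1) scale used throughout, was 1.33 ± 0.38 (SE; limma adjusted p = 0.20), and 1.59 after median-of-ratios scaling.

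Adam11 (chromosome 11, 102761439 to 102780262) encodes a membrane protein of the ADAM family that lacks protease activity. It was at 5.18, 3.0, 0.778, 6.28 and 2.13 TPM without diabetes and from 5.54 to 11.3 TPM (median 10.4) in Akita. A single Akita sample fell within the non-diabetic range in TPM, and none did after median-of-ratios scaling. The log2 fold change was 1.37 ± 0.37 (adjusted p = 0.192), and 1.65 scaled.

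Npl, the lyase that splits sialic acid, was at 1.33, 1.38, 1.05, 2.44 and 1.2 TPM without diabetes and from 1.88 to 4.54 TPM (median 3.12) in Akita. Non-diabetic sample 5 was the only one of its group inside the Akita range. The log2 fold change was 0.76 ± 0.27 (adjusted p = 0.28), and 1.01 scaled, where the groups did not overlap. Rarb, a retinoic acid receptor, was at 1.65, 2.83, 0.684, 3.12 and 2.48 TPM without diabetes and from 2.09 to 6.96 TPM (median 5.41) in Akita, a log2 fold change of 0.89 ± 0.31 (adjusted p = 0.28). It did not overlap after scaling either (1.14).

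Bicd1, which links cargo to the motor dynein, was at 0.652 to 1.48 TPM without diabetes and 0.922 to 5.36 TPM in Akita, a log2 fold change of 0.81 ± 0.26. Lyplal1, a lysophospholipase-like protein, had 0.84 ± 0.32, and Exosc1, a subunit of the RNA exosome, had 0.63 ± 0.25. Fancl, a ubiquitin ligase of DNA crosslink repair, had 0.69 ± 0.27, and Cdpf1 had 0.73 ± 0.25. Tmem265 was listed at 0 in 4 of 5 non-diabetic samples and lay at 0.571 to 2.49 TPM in Akita (1.06 ± 0.36). Snhg10, a host gene of small nucleolar RNA, was likewise listed at 0 in 4 of 5 and reached 0 to 3.51 TPM (0.81 ± 0.31). Rps15a, a protein of the small ribosomal subunit with many pseudogene copies, is uncertain for that reason and was at 2.11 to 19 TPM and 13.7 to 21.6 TPM (1.07 ± 0.40). Adjusted p ran from 0.25 to 0.293 over these 8 genes, and each value was larger after scaling, from 0.79 to 1.41.

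On the side lower in Akita, Sox5 had the smallest p. Sox5 (chromosome 6, 143828425 to 144781977), a transcription factor of the SOX family, was at 2.38, 3.84, 2.39, 1.3 and 3.9 TPM without diabetes and from 0.0749 to 1.05 TPM (median 0.549) in Akita. Every Akita sample was below every non-diabetic sample. The log2 fold change was −1.26 ± 0.26 (limma adjusted p = 0.14, with 0.0375 to 0.468 over the alternatives), and −1.09 after scaling, where the ranges met. Its adjusted p passed the threshold without non-diabetic sample 5, at 0.0375.

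Hspa1a, an inducible cytosolic chaperone, was at 6.51, 3.99, 2.25, 1.33 and 1.26 TPM without diabetes and from 0 to 0.497 TPM (median 0.306) in Akita. The groups did not overlap on either scale. The log2 fold change was −1.52 ± 0.36 (adjusted p = 0.14), and −1.38 scaled. When the model held only the 4 vehicle groups the adjusted p was 0.0365, and over all alternatives it ran from 0.0365 to 0.492.

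Cathepsin S (Ctss), a lysosomal protease abundant in macrophages, was at 0.988, 1.96, 3.43, 2.43 and 1.63 TPM without diabetes and from 0.261 to 0.881 TPM (median 0.423) in Akita, apart on both scales. Its log2 fold change was −0.99 ± 0.24 (adjusted p = 0.155), and −0.83 scaled. Srpk1, a kinase of splicing factors, was at 20.3, 27.6, 21.1, 33.7 and 24.7 TPM and from 7.3 to 16.5 TPM (median 14.7), apart on both scales, with −0.89 ± 0.22 (adjusted p = 0.157) and −0.56 scaled. Bulk samples cannot tell fewer cells of a type from less RNA per cell.

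Several other leading genes were apart in TPM but met after scaling. Nudt19, a peroxisomal enzyme that splits coenzyme A, was at 31, 34.1, 66.5, 43.3 and 62.2 TPM without diabetes and from 9.65 to 28.4 TPM (median 16.5) in Akita (−1.34 ± 0.42, −1.01 scaled). Katna1, the catalytic subunit of the microtubule-severing enzyme katanin, was at 3.73 to 5.27 TPM and 1.18 to 2.18 TPM (−0.93 ± 0.22, −0.67 scaled). Banp, which binds DNA in the nuclear matrix, was at 7.74 to 14.9 TPM and 1.08 to 7.36 TPM (−1.43 ± 0.42, −1.16 scaled). Vmp1, an endoplasmic reticulum protein of autophagy, was at 15.1 to 45.3 TPM and 9.35 to 13.4 TPM (−1.09 ± 0.28, −0.76 scaled). Cwf19l1 had −1.13 ± 0.24, Fam179b −1.0 ± 0.29, Fibp, which binds a fibroblast growth factor, −1.0 ± 0.32, and the zinc finger gene Zfp236 −0.88 ± 0.22. Ranges met narrowly in TPM for Dpf2, a subunit of a chromatin remodeller (−1.14 ± 0.27), and for Pdss1, which makes the side chain of coenzyme Q (−1.06 ± 0.26). Adjusted p lay between 0.14 and 0.243 over these 10 genes, and scaled values between −1.16 and −0.58.

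Car3, a carbonic anhydrase, had the most negative log2 fold change of the genes named here. It was at 7.51, 3.59, 18.2, 8.9 and 5.07 TPM without diabetes and from 0.243 to 4.0 TPM (median 1.22) in Akita, with the highest Akita sample just above the lowest non-diabetic one. The log2 fold change was −1.84 ± 0.47 (adjusted p = 0.183), and −1.64 scaled. Ldhd, the mitochondrial D-lactate dehydrogenase, was at 78.5 to 122 TPM and 36.4 to 96.9 TPM (−0.79 ± 0.25, adjusted p = 0.25, −0.44 scaled).

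**Figure D3:**
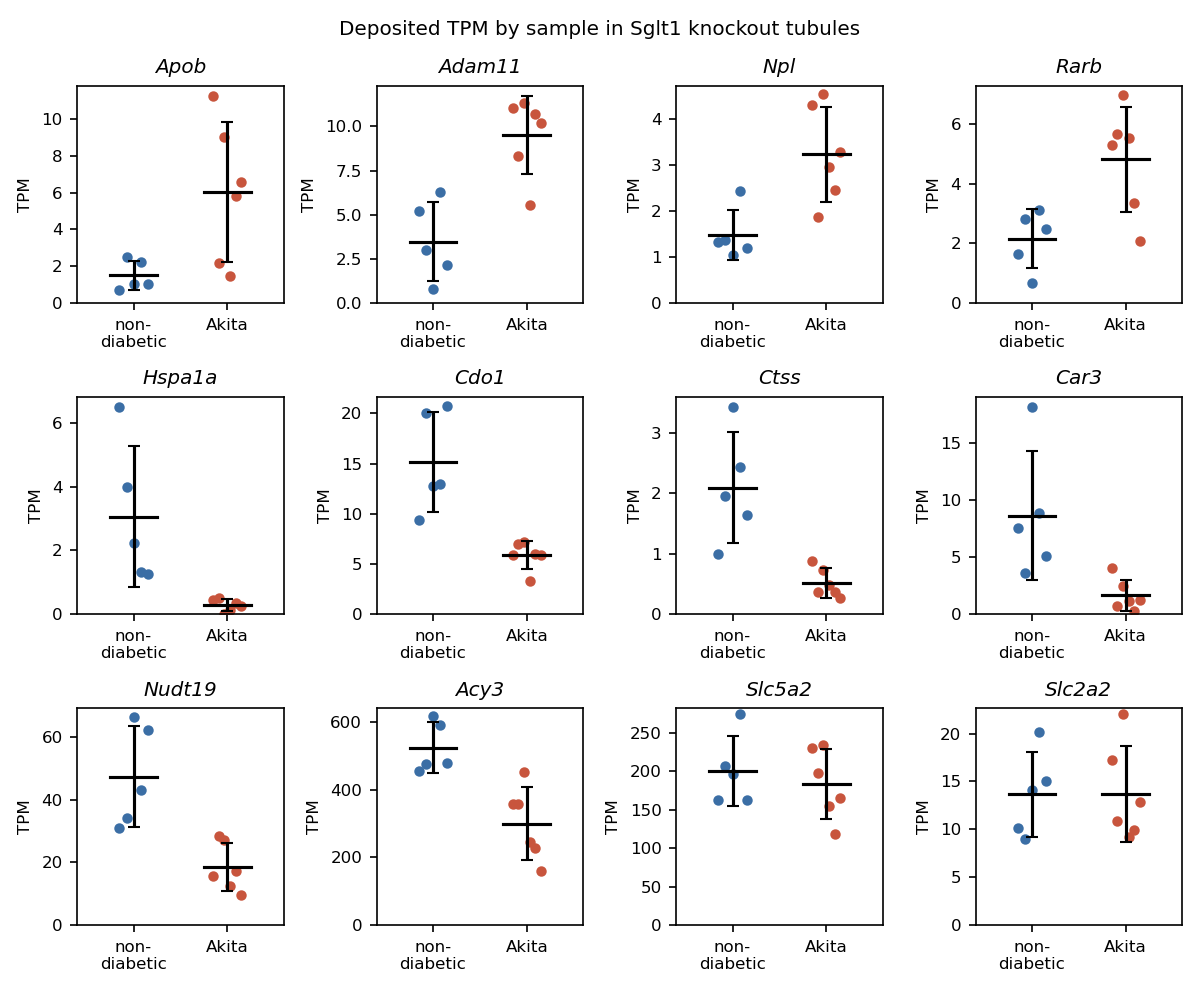
Deposited TPM of 12 genes in each of the 5 non-diabetic and 6 Akita Sglt1 knockout vehicle samples (points); lines are means and bars SD, and each axis starts at 0. The groups are apart for Hspa1a, Cdo1, Ctss, Nudt19 and Acy3, meet for Apob, Adam11, Npl, Rarb and Car3, and lie over each other for Slc5a2 and Slc2a2.

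Of the 54 gene lists examined, the heat shock chaperones had the largest share of members lower at an unadjusted p under 0.05 in TPM. These proteins fold client proteins in the cytosol, and heat shock factor binds GAA repeats before many of their genes. In TPM 20 of 20 tested members were lower, where 81.4% of all genes were, and 14 of them at an unadjusted p under 0.05, where 14% of all genes were. The groups did not overlap for 4 members in TPM, where 0.698% of all genes were lower and apart. Scaled, 1 member (Hspa1a) stayed apart, against 0.322% of all genes. After scaling 18 of 20 were lower, 6 at an unadjusted p under 0.05, where 3.86% of all genes were. The list's median less that of all genes was −0.38 in TPM and −0.35 scaled, and −0.43 without Akita samples 5 and 6. None passed the test across all genes.

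The windows before 3 of these genes are shown because the members were low together, and the capitals mark a heat shock element, the word GAA and the word TTC in either order with 2 bases between them, on either strand. They are 150 bases up to the base before a RefSeq start (GRCm38.p6), at chr17:34972157-34972306 (- strand) for Hspa1a, chr5:149636337-149636486 (- strand) for Hsph1 and chr4:40722318-40722467 (+ strand) for Dnaja1. RefSeq gives 1 start for Hspa1a, 2 for Hsph1 and 3 for Dnaja1. Both windows of Hsph1 hold the element, while the window of Dnaja1 was picked as the 1 of 3 that holds it.
Hspa1a: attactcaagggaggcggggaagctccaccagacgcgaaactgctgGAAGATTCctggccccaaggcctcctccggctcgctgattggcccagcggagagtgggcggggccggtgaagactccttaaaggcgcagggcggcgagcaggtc
Hsph1: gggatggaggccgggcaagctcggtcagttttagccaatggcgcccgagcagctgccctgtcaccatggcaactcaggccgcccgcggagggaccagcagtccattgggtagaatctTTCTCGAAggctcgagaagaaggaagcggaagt
Dnaja1: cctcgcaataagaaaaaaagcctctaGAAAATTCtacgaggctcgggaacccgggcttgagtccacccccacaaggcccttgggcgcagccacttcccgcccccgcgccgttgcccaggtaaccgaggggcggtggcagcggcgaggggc
In windows of 300 bases, 250 before and 50 after a start, 11 of the 17 members with a window held such a word at any of their starts, against 17% of 27025 genes counted the same way. Among the 11 were Hspd1 and Hspe1, the 2 members higher after scaling, and Hspb8, which was too low to be tested. The 11 are not all separate sites. Windows of Hspd1 and Hspe1 overlap and hold the same bases on opposite strands, and those of Hspa1a and Hspa1b are near copies. Stip1, apart in TPM, held none. Whether the word goes with lower values was not tested. A match describes letters and is no evidence that a factor was bound.

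Hsph1, which helps HSP70 release its clients, was at 48, 28.4, 16.8, 28.5 and 36.5 TPM without diabetes and from 6.87 to 16.3 TPM (median 12.4) in Akita. The groups did not overlap in TPM, and the log2 fold change was −1.34 ± 0.44 (adjusted p = 0.257), −1.01 scaled. Dnaja1, a cochaperone of HSP70, was at 56, 41.7, 42.1, 65 and 42.4 TPM and from 14.9 to 31.2 TPM (median 26.7), also apart, with −0.96 ± 0.24 (adjusted p = 0.157) and −0.62 scaled. Hspa1b is nearly identical to Hspa1a, so reads may be split between them. It was at 9.6, 9.8, 5.02, 1.74 and 4.05 TPM and from 0.173 to 1.88 TPM (median 1.22), with −1.63 ± 0.49 (−1.45 scaled). Chordc1, a partner of HSP90, was at 5.93 to 17.4 TPM and 1.32 to 12.3 TPM (−1.36 ± 0.37, −1.09 scaled).

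The further members named here had smaller changes than those above. The cytosolic HSP90 genes Hsp90aa1 and Hsp90ab1 had log2 fold changes of −0.74 ± 0.24 and −0.62 ± 0.22 (−0.40 and −0.27 scaled). Hspa8, the constitutive HSP70, had −0.54 ± 0.27 (−0.19 scaled), and Stip1, which joins HSP70 to HSP90, had −0.64 ± 0.21 (−0.36 scaled). The 2 members that were higher after scaling were Hspd1 and Hspe1, which make the mitochondrial chaperonin (0.13 and 0.23).

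Proteins that fold cargo in the endoplasmic reticulum, with the genes of the unfolded protein response, were lower in TPM for 22 of 22 members, 12 at an unadjusted p under 0.05 (81.4% and 14% of all genes). After scaling 17 of 22 were lower, 4 at an unadjusted p under 0.05 (50.1% and 3.86% of all genes). The median less that of all genes was −0.25 in TPM and −0.18 scaled. Hspa5, the main HSP70 of this compartment (BiP), and Creld2, a stress-induced disulfide isomerase, are shown with capitals on an endoplasmic reticulum stress element, CCAAT and CCACG with 9 bases between them on either strand. The windows are chr2:34771940-34772089 (+ strand) and chr15:88819496-88819645 (+ strand).
Hspa5: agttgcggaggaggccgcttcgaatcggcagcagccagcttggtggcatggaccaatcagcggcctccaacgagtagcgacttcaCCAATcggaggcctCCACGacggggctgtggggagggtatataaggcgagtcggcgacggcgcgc
Creld2: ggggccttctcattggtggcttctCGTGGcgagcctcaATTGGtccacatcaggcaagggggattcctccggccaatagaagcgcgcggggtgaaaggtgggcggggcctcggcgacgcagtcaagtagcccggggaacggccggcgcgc
In the windows of 300 bases, 8 of the 20 members with a window held it, against 0.137% of genes. Calr and Canx, on the higher side after scaling, were among the 8, and Herpud1 and Sel1l, lower on both scales, were not. In Creld2 the element lies on the other strand, so the words are seen in reverse complement.

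Creld2 was at 11.1, 11.4, 9.55, 8.38 and 6.19 TPM without diabetes and from 3.45 to 6.11 TPM (median 5.42) in Akita. The groups did not overlap in TPM, with a log2 fold change of −0.71 ± 0.21 (adjusted p = 0.202) and −0.41 scaled. Hspa5 was at 40.7, 89.1, 62.2, 51.8 and 49.2 TPM and from 24.3 to 53 TPM (median 33), overlapping, with −0.75 ± 0.23 (adjusted p = 0.234) and −0.41 scaled. Sel1l and Herpud1 serve the removal of misfolded proteins, and had −0.80 ± 0.25 and −1.03 ± 0.34 (−0.47 and −0.69 scaled).

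**Figure D4:**
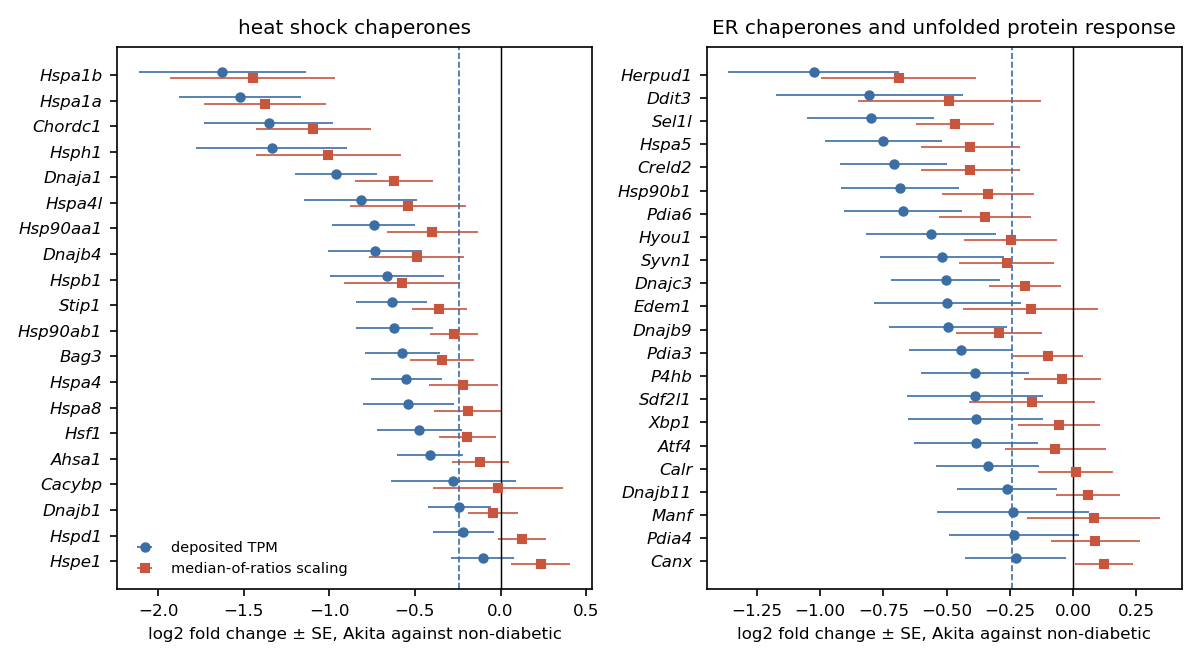
Log2 fold changes ± SE (x axis) of the 20 tested heat shock chaperones and 22 endoplasmic reticulum chaperone and unfolded protein response genes, Akita against non-diabetic Sglt1 knockouts, from TPM and after median-of-ratios scaling; the dashed line is the TPM median of all genes. All TPM values are below 0, and Hspa1b, Hspa1a, Chordc1 and Hsph1 are past −1 on both scales.

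Immediate early genes, transcribed within minutes of a stimulus, were lower for 14 of 15 members in TPM (5 at an unadjusted p under 0.05) and for 13 of 15 scaled (3). Of all genes 81.4% were lower in TPM (14% at an unadjusted p under 0.05) and 50.1% scaled (3.86%). Nr4a1, a nuclear receptor, was at 0.589, 4.1, 1.19, 1.22 and 0.955 TPM without diabetes and from 0.14 to 1.16 TPM (median 0.277) in Akita (−0.79 ± 0.28, −0.63 scaled). Non-diabetic sample 2 stood above the rest of its group. Jun, a subunit of AP-1, was at 14.8 to 26.7 TPM and 6.04 to 19.6 TPM (−0.86 ± 0.33, −0.54 scaled). The factors Klf2 and Btg2 had −0.62 ± 0.24 and −0.57 ± 0.22. The median of the list less that of all genes was −0.25, from −0.38 to −0.10 when single samples were left out.

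Genes that androgen induces or that are higher in male mouse kidney were lower for 14 of 15 members in TPM, 8 at an unadjusted p under 0.05 (81.4% and 14% of all genes), with a median less that of all genes of −0.41. After scaling 13 of 15 were lower, against 50.1% of all genes, and 0 reached an unadjusted p under 0.05, against 3.86% (median −0.35). Kap, an abundant androgen-regulated kidney protein, was at 1287, 1448, 1937, 2203 and 1817 TPM without diabetes and from 810.0 to 1967 TPM (median 1053) in Akita, with 5 of 6 below the non-diabetic median (−0.60 ± 0.25, adjusted p = 0.303, −0.25 scaled). Cyp4a12a, a fatty acid hydroxylase, was at 39.8 to 90.3 TPM and 17.7 to 60.5 TPM (−0.82 ± 0.30, −0.48 scaled), and reads may be shared with its copy Cyp4a12b. The organic anion carriers Slc22a30 and Slco1a1 had −0.70 ± 0.25 and −0.91 ± 0.36 (−0.35 and −0.57 scaled), and Cyp2e1, a cytochrome P450, had −0.65 ± 0.27 (−0.31 scaled).

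Markers of the late proximal tubule (S3) were lower for 10 of 10 members in TPM and 9 of 10 scaled (81.4% and 50.1% of all genes), with a median less that of all genes of −0.25 and −0.27. They summed to 1105 to 1791 TPM without diabetes and 598.8 to 1640 TPM in Akita. The early markers summed to 1267 to 2123 and 950.5 to 2022 TPM, so the S3 list was not scarce in these tubules. Whether its members mark S3 here was not tested. Acy3, an aminoacylase, was at 455, 476, 618, 591 and 479 TPM without diabetes and from 160.1 to 451 TPM (median 300.1) in Akita, apart on both scales (−0.88 ± 0.25, adjusted p = 0.20, −0.53 scaled). Atp11a, a lipid flippase, was at 162 to 275 TPM and 45.4 to 255 TPM (−0.86 ± 0.35), and the amino acid transporter Slc7a13 had −0.57 ± 0.31. Slco1a1 belongs to this list and to the male-biased list. Drug and steroid metabolism genes were lower for 23 of 25 members in TPM, 7 at an unadjusted p under 0.05 (81.4% and 14% of all genes), and for 16 of 25 scaled (50.1%). Of these, Cyp2d12 was at 5.78 to 15.6 TPM and 1.76 to 6.67 TPM, apart after scaling (−1.28 ± 0.41, −0.99 scaled). Fmo5, a flavin monooxygenase, and Hsd17b11, a steroid and lipid dehydrogenase, had −0.70 ± 0.21 and −0.77 ± 0.30.

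Cdo1, cysteine dioxygenase, makes the first step from cysteine towards taurine. It was at 9.41, 20.1, 12.8, 12.9 and 20.8 TPM without diabetes and from 3.27 to 7.14 TPM (median 5.96) in Akita, with every Akita sample lower (−1.21 ± 0.28, adjusted p = 0.14, −0.90 scaled). Mat2a, which makes S-adenosylmethionine, was at 65.4 to 111 TPM and 34.2 to 74.6 TPM (−0.81 ± 0.29, −0.47 scaled). Bhmt, which remethylates homocysteine, was on the other side at 0 to 0.561 TPM and 0.349 to 2.37 TPM (0.57 ± 0.26, 0.68 scaled). Over the 20 tested genes of sulfur amino acid and taurine metabolism, 14 were lower in TPM and 7 scaled, both smaller shares than the 81.4% and 50.1% of all genes.

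The complexes BLOC and AP-3 build lysosome-related organelles, and loss of their subunits causes Hermansky-Pudlak syndrome. Bloc1s1, a subunit of BLOC-1, was at 18.5, 19.4, 26.9, 19.3 and 22.8 TPM without diabetes and from 8.32 to 14.4 TPM (median 11.2) in Akita, with every Akita sample lower (−0.82 ± 0.18, adjusted p = 0.14). The scaled value was −0.49, and the ranges then met. Hps1, a subunit of BLOC-3, was at 8.57, 3.67, 2.91, 9.32 and 9.11 TPM and from 0.97 to 3.2 TPM (median 1.61) (−1.38 ± 0.32, adjusted p = 0.14, −1.13 scaled). Hps5, of BLOC-2, and Ap3s1, of AP-3, had −0.69 ± 0.22 and −0.70 ± 0.28. Of 18 tested members 14 were lower in TPM and 10 scaled, close to the 81.4% and 50.1% of all genes, and 6 were lower at an unadjusted p under 0.05 in TPM, where 14% of all genes were. The median of the list less that of all genes was −0.07.

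Hypoxia response genes were lower for 16 of 18 members in TPM and 12 of 18 scaled, where 81.4% and 50.1% of all genes were, so by sign in TPM the list lay near all genes. At an unadjusted p under 0.05, 4 of 18 were lower in TPM and 3 scaled, where 14% and 3.86% of all genes were. P4ha1 and P4ha2, subunits of the enzyme that hydroxylates collagen prolines, did not overlap between the groups in TPM, where 0.698% of all genes were lower and apart. Scaled, 0 members were apart. P4ha2 was at 9.95, 9.71, 8.0, 8.03 and 6.36 TPM without diabetes and from 3.11 to 6.3 TPM (median 4.42) in Akita (−0.77 ± 0.23, −0.48 scaled). P4ha1 was at 6.23, 5.21, 5.87, 5.75 and 6.95 TPM and from 1.92 to 5.1 TPM (median 3.53) (−0.68 ± 0.22, −0.41 scaled). Pfkfb3, a regulator of glycolysis, and Ndrg1 had −1.0 ± 0.33 and −0.69 ± 0.30.

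The glucose carriers of the tubule did not differ beyond their spread. Slc5a2 was at 163, 206, 197, 275 and 162 TPM without diabetes and from 118 to 234 TPM (median 182) in Akita, and Slc2a2 at 10.1, 8.96, 14.1, 20.2 and 15 TPM and from 9.17 to 22 TPM (median 11.8). Both genes overlapped almost fully between the groups. The log2 fold changes were −0.14 ± 0.26 and −0.01 ± 0.25 in TPM (adjusted p = 0.81 and 0.992) and turned to 0.21 and 0.32 after scaling. Of 10 tested genes of the list, 8 were lower in TPM and 8 were higher scaled (81.4% and 49.6% of all genes), and 0 reached an unadjusted p under 0.05 on either scale. Pck1, the key enzyme of gluconeogenesis, was at 308 to 689 TPM and 159.7 to 448 TPM (−0.72 ± 0.32, −0.37 scaled).

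Among transcription factors of proximal tubule identity 16 of 16 tested were lower in TPM, 6 at an unadjusted p under 0.05, and 9 of 16 scaled. Of all genes 81.4% and 14% were in TPM, and 50.1% scaled. Ppara, the regulator of fatty acid oxidation, was at 12.8 to 17 TPM and 2.25 to 13.8 TPM (−0.95 ± 0.31, −0.65 scaled). Cux1 and Pax8, both DNA-binding factors, had −0.56 ± 0.20 and −0.69 ± 0.27 (−0.22 and −0.35 scaled). Fasn, which makes fatty acids, had −0.53 ± 0.22 (−0.28 scaled).

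In some lists fewer members were lower in TPM than the 81.4% of all genes, and more were higher after scaling than the 49.6% of all genes. Nuclear genes of the respiratory chain were lower for 51 of 75 members in TPM and higher for 72 of 75 scaled, 11 of them at an unadjusted p under 0.05, where 4.03% of all genes were. Their median less that of all genes was 0.18 in TPM, and 0.12 without Akita samples 5 and 6. Proteins of the cytosolic ribosome were lower for 61 of 83 members in TPM and higher for 75 of 83 scaled, 15 at an unadjusted p under 0.05. Rpl36, with −0.62 ± 0.24 in TPM (−0.27 scaled), was among the few on the lower side of both. Amino acid breakdown genes were lower for 24 of 31 members in TPM and higher for 27 of 31 scaled, 7 at an unadjusted p under 0.05.

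The following were picked after their values were seen, for being apart after scaling or leading there. Slc34a3, a sodium phosphate cotransporter, was at 3.25 to 8.19 TPM without diabetes and 5.0 to 12.5 TPM in Akita (0.58 ± 0.33 in TPM, 0.89 scaled). Oat, ornithine aminotransferase, was at 2.22 to 5.69 TPM and 2.99 to 8.66 TPM (0.39 ± 0.28, 0.68 scaled). Asl, the argininosuccinate lyase of arginine synthesis, had 0.14 ± 0.23 and 0.48, and Atp5j, a subunit of ATP synthase, 0.11 ± 0.17 and 0.46.

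Markers of neighbouring cells were present at low levels. Those of endothelium, leukocytes and podocytes were on the lower side in Akita on both scales, and those of the later nephron and red blood cells lay on both sides after scaling. Endothelial markers summed to 56.7 to 114 TPM without diabetes and 23.5 to 70.3 in Akita. All 13 were lower on both scales, 5 at an unadjusted p under 0.05 in TPM and 1 scaled, with a median less that of all genes of −0.28, or −0.15 without Akita samples 5 and 6. Of all genes 81.4% were lower in TPM (14% at an unadjusted p under 0.05). Scaled, 50.1% were lower (3.86%) and 49.6% higher. The marker counts here and below are read against these shares. Flt1 and Kdr, receptors of vascular endothelial growth factor, had −0.75 ± 0.28 and −0.55 ± 0.24, and the endothelial proteins Eng and Plvap −0.74 ± 0.30 and −0.63 ± 0.28. Leukocyte markers summed to 7.13 to 19.6 and 2.31 to 10.9 TPM, and 6 of 6 tested were lower on both scales. Ptprc (CD45) was at 1.43 to 2.56 TPM and 0.315 to 2.11 TPM (−0.74 ± 0.22), and the complement gene C1qc had −0.60 ± 0.23. Podocyte markers summed to 20.6 to 36.3 and 11.6 to 29.1 TPM, with 7 of 7 lower, Podxl among them (−0.75 ± 0.31). Of the leukocyte markers Cd68, Emr1, Cd3e, Cd79a and Itgam stayed under 1 TPM in all 11 samples, as did the podocyte gene Wt1, and Cldn16 of the thick ascending limb was listed at 0 in all 11. Thick ascending limb markers summed to 42.1 to 80.2 and 29.9 to 163 TPM, with 6 of 8 lower in TPM and 5 of 8 scaled. Distal convoluted and connecting tubule markers summed to 29.5 to 83.4 and 6.97 to 124 TPM, with 6 of 6 lower in TPM and 3 of 6 scaled. Collecting duct markers summed to 14.2 to 54.3 and 10.5 to 25.8 TPM, with 5 of 9 lower in TPM and 6 of 9 higher scaled, and a median less that of all genes of 0.09. Fibroblast, pericyte and smooth muscle markers summed to 12.6 to 63.2 and 3.64 to 76.7 TPM, with 10 of 12 lower in TPM and 9 of 12 scaled. Red blood cell markers summed to 2.37 to 14.5 and 0.132 to 9.03 TPM, with 2 of 4 lower on each scale. The part of these cells in the values of Ctss and of the lists above was not tested.

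The same comparison in Sglt1 wild-type vehicle tubules (6 Akita, 5 non-diabetic) and in knockouts on dapagliflozin, an SGLT2 inhibitor (10 mg/kg diet; 6 and 6), shares no sample with the one above. Apob was at 0.944 to 2.17 TPM and 4.21 to 13.5 TPM in wild type, where it passed the test (1.97 ± 0.38, adjusted p = 0.0242), and at 0.64 to 1.96 TPM and 1.34 to 4.67 TPM under dapagliflozin (0.91 ± 0.36). Adam11 had 1.72 ± 0.37 in wild type and 1.56 ± 0.35 under dapagliflozin. Car3 passed the test in wild type (−2.39 ± 0.47, adjusted p = 0.0316) and had −0.80 ± 0.45 under dapagliflozin. Cdo1 had −0.99 ± 0.28 and −0.49 ± 0.26, Nudt19 −1.29 ± 0.42 and −0.43 ± 0.40, Acy3 −0.86 ± 0.25 and −0.31 ± 0.24. These genes, picked from those named above, were thus on the same side in all 3 comparisons, while Sox5, Hps1 and Bloc1s1, given below, were not. Of all 12742 genes in TPM, 9462 were lower and 3280 higher in wild type. Under dapagliflozin 7134 were lower and 5585 higher, so a lower sign alone was common.

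Hspa1a was also below 0 in all 3 comparisons, though nearer 0 in these 2, and its difference between knockout and wild type did not pass the interaction test (limma adjusted p = 1.00). In wild type it was at 0.645 to 1.33 TPM without diabetes and 0.144 to 1.66 TPM in Akita (−0.32 ± 0.36), and in knockouts on dapagliflozin at 1.01 to 3.5 TPM and 0.655 to 7.99 TPM (−0.03 ± 0.34). The median of the heat shock list less that of all genes was −0.18 in wild type and 0.04 under dapagliflozin, against −0.38 here. For immediate early genes it was 0.16 and −0.15, and for endothelial markers 0.01 and −0.02. Male-biased genes had −0.81 in wild type and −0.13 under dapagliflozin. Sox5 had −0.27 ± 0.26 and 0.15 ± 0.25, Hps1 −0.42 ± 0.32 and 0.74 ± 0.30, and Bloc1s1 −0.20 ± 0.18 and 0.10 ± 0.18. Differences between these lists were not tested.

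Of the 513 genes higher after scaling at an unadjusted p under 0.05 in knockouts, 65.1% were higher in wild type, where 49.6% of all genes were, and 61.6% were higher under dapagliflozin (49.2% of all). Of the 492 lower genes, 59.1% were lower in wild type (50.4% of all) and 59.6% under dapagliflozin (50.7% of all). Across genes, the scaled log2 fold changes in knockout and wild type had a Pearson r of 0.06 and a Spearman rho of 0.09, and those in knockout without and with dapagliflozin 0.08 and 0.12. Genes are not independent, so these are descriptions with no p.

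An interaction term tested whether the value in knockouts differed from that in wild type. No gene passed (limma adjusted p under 0.05, 0% of 12742). An unadjusted p under 0.05 was found for 406 of the 12742 genes (109 higher, 297 lower). In TPM this is a smaller share than the 0.05 of the threshold itself. After median-of-ratios scaling 820 genes had such a p (439 higher, 381 lower), a larger share than 0.05, and 0 passed the test. The interaction values below are from TPM. On the side where diabetes gave a higher value in knockouts, Fdx1, the ferredoxin of mitochondrial steroid synthesis, had an interaction of 1.08 ± 0.32 from 0.33 in knockouts and −0.75 in wild type. Tceanc2 had 1.72 ± 0.54, Mapre3, a microtubule end-binding protein, 0.79 ± 0.28, Aimp1, of the tRNA synthetase complex, 0.91 ± 0.33, and Fh1, fumarate hydratase, 1.34 ± 0.49. On the other side Evl, which promotes actin assembly, had −1.13 ± 0.29 from −0.77 and 0.36. Itgb6, an integrin that activates TGF-beta, had −1.45 ± 0.43 from −0.56 and 0.89. Phc1, a Polycomb subunit, had −1.09 ± 0.32, Sde2 −1.13 ± 0.35 and Cwf19l1 −1.17 ± 0.34. Apob, Car3 and Hspa1a had interactions of −0.64 ± 0.53, 0.55 ± 0.66 and −1.21 ± 0.50. Adjusted p was at 1.00 for each of these genes.

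**Figure D5:**
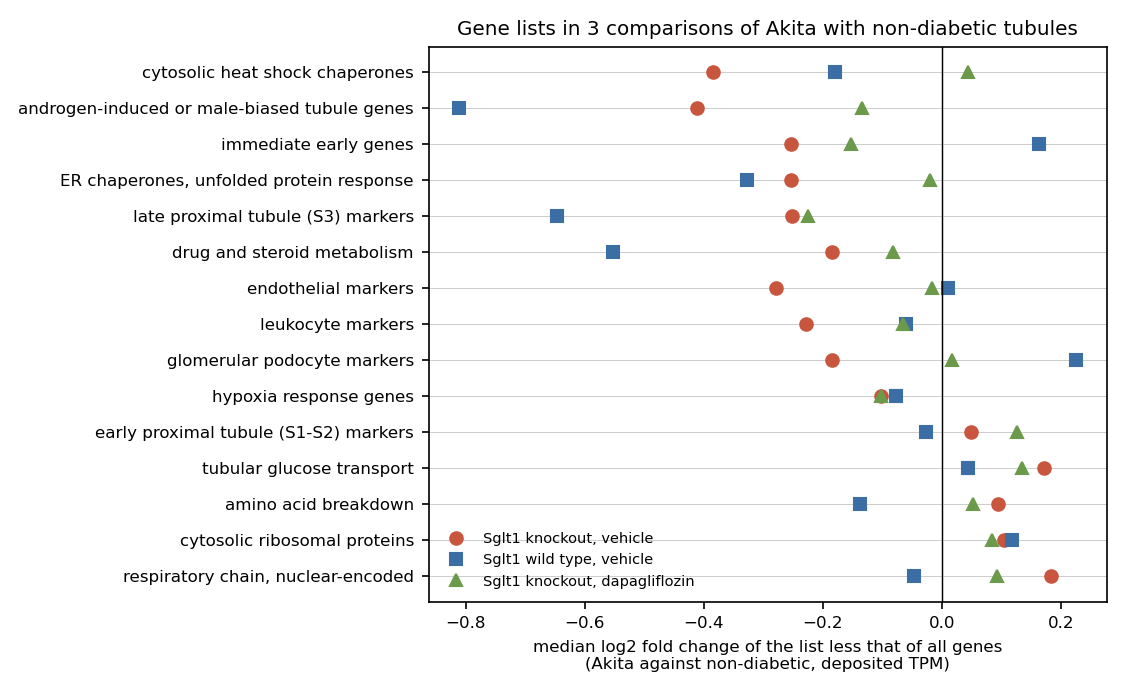
Median log2 fold change of 15 gene lists less that of all genes tested (x axis, deposited TPM) for Akita against non-diabetic tubules in Sglt1 knockouts on vehicle (circles), wild type on vehicle (squares) and knockouts on dapagliflozin (triangles). The heat shock list is at −0.38, −0.18 and 0.04, and the male-biased list at −0.41, −0.81 and −0.13.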

How the data were processed

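Laser-captured SGLT2-positive tubules were sequenced as stranded total RNA from 0.5 ng of RNA, per the labels' protocols. The authors deposited 1 table of TPM, for which Salmon, MultiQC 1.8 and GRCm38 were named in the submitters' processing notes, and the Salmon version is not given in the sources used here. The table is named as having outliers removed. How they were chosen is not given in the sources used here, and such removal can narrow the spread. TPM holds no depth, so a count model was not used.

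Values were analysed as log2(TPM + 1), which understates changes of low genes. A linear model of 9 groups over 48 samples (39 residual degrees of freedom) was fitted with limma 3.58.1 in R 4.3.3 (trended, robust variances, statmod 1.5.0), tested on simulated data, with Benjamini-Hochberg adjustment. All adjusted p of genes are limma's. Symbols and positions came from GENCODE for GRCm38 (52738 of 55487 rows matched), and promoter windows from RefSeq. Named genes were 13 set genes, the 12 smallest p in each direction, up to 10 of the largest changes among genes whose groups did not overlap, up to 4 per list described and 5 in each direction of the interaction, without predicted genes, and 1 gene that this rule names is not reported here. The members, the 54 lists and the tests were chosen with earlier results of these data known. No pair of columns was identical (0 found).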

Additional observations from a re-analysis of the deposited data

Results flagged for a closer look

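Across 98 genes and 6 library measures in each of the 2 groups, 1 sample stood apart from the rest of its group (the gap to the next sample, as a share of the group's range, above 0.71 for 5 samples or 0.625 for 6) in 7 of 208 sets of values. For genes the gap and the range were taken on the log2(TPM + 1) scale, while the values below are TPM. Chance alone gives about 1 in 20.

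Non-diabetic sample 5 was the highest of its group for Npl, at 2.44 TPM against 1.05 to 1.38 TPM in the others. It was also highest for Tmem265, at 1.06 TPM, and for Snhg10, at 0.389 TPM, each listed at 0 in the other 4 samples. Non-diabetic sample 2 was highest for the immediate early gene Nr4a1, at 4.10 TPM against 0.589 to 1.22 TPM. Non-diabetic sample 1 was lowest for the S3 marker Slc7a13, at 17.8 TPM against 36.8 to 48.3 TPM. Among Akita samples, sample 4 was lowest for Cdo1, at 3.27 TPM against 5.85 to 7.14 TPM, and sample 6 was lowest for Creld2, at 3.45 TPM against 5.19 to 6.11 TPM.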

How the results depend on the processing

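No paired analysis was possible because the labels number no replicates, and the sample numbers used here only name samples in listing order and tie no animals together. Genes called numbered 0 in TPM, 2 with only the 4 vehicle groups fitted (Hspa1a and the predicted gene Gm12840, named after its values were seen) and 0 to 1 with single samples left out, by limma. The 1 was Gm22009 without Akita sample 2 and Sox5 without non-diabetic sample 5. The interaction called 0 genes in every alternative.

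Genes at an unadjusted p under 0.05 that were higher in Akita, 52 in TPM, numbered 513 with median-of-ratios scaling, 467 rescaled to nuclear protein-coding genes, 489 with quantile normalization, 504 with genes detected as a covariate, 226 without a filter, 11 with a filter of 5 TPM, 173 without Akita samples 5 and 6, 435 when these 2 were left out under median-of-ratios scaling (an alternative chosen after seeing the data), and 35 to 103 with single samples left out. The lower ones, 1784 in TPM, numbered 492, 510, 495, 432, 3032, 1089, 389, 388 and 895 to 2587 in the same order, and 1083 when only the groups compared were fitted. They numbered 973 without Akita sample 5, 895 without sample 6 and 937 without non-diabetic sample 5.

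Genes whose groups did not overlap, 0 higher and 89 lower in TPM, numbered 53 and 41 with median-of-ratios scaling. They numbered 51 and 43 rescaled to nuclear protein-coding genes and 53 and 43 with quantile normalization. Without a filter there were 1 higher and 115 lower, and with a filter of 5 TPM 0 and 49. Without Akita samples 5 and 6 there were 29 higher and 105 lower. Leaving these out under median-of-ratios scaling gave 132 higher and 124 lower. Single samples left out gave 0 to 8 higher and 92 to 338 lower. Where samples are left out, fewer samples overlap less easily. The cause of the other shifts was not tested.

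Of 89 gene results in knockouts, 84 kept their direction in every alternative. Slc5a2 turned to 0.21 with median-of-ratios scaling, 0.20 rescaled to protein-coding genes, 0.11 with quantile normalization, 0.23 with genes detected as a covariate, 0.0359 without Akita samples 5 and 6, and 0.13 under both. Slc2a2 turned to 0.32, 0.32, 0.31, 0.23, 0.0855 and 0.17 in that order, to 0.0468 with the capture number as a covariate, and lay between −0.15 and 0.14 with single samples left out. Slc5a1 turned to 0.16 with genes detected as a covariate, and Hspd1 to 0.13, 0.11 and 0.0851 in the first 3 of these settings. Hspe1 turned to 0.23, 0.23, 0.191, 0.0481, 0.00789 and 0.102 in the order above, and lay between −0.210 and 0.0381 with single samples left out. Of the 54 list medians less that of all genes, 18 kept their sign in every alternative. That of antigen presentation and interferon genes was −0.30 in TPM and 0.02 without Akita samples 5 and 6. TPM leaves depth unknown, so no detection limit could be given.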
